A study of Mus musculus with 10 samples.

Results

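The genes of cholesterol and fatty acid synthesis were examined in mouse liver and liver tumors. They were selected by symbol from a list of 32 genes, and all 32 were found among the 16697 gene entries of the expression table. The sterol branch holds 18 of them, the fatty acid branch 9, and the remaining 5 encode the SREBP transcription factors and the proteins that control them. RNA-Seq was available for 10 libraries, which fell into normal liver (NL, n = 4), tumors driven by the c-MYC oncogene (c-MYC, n = 3) and tumors raised with both c-MYC and FOXO1AAA (c-MYC/FOXO1AAA, n = 3). FOXO1AAA is a mutant of the transcription factor FOXO1 that stays active. Tumors were raised by hydrodynamic tail vein injection, in which plasmids are forced into hepatocytes and integrated by the Sleeping Beauty transposase. The c-MYC mice also received the empty pT3-EF1α vector. The transgenes are driven by the EF1α promoter, which is active in many cell types. All mice were WT. The labels name the strain as C57BL/6, whereas the study's text names FVB/N, and neither was used in a test. Whether the NL mice were injected is not given in the sources used here, nor are the age and feeding state at tissue collection. The labels do not tie a library to an animal, so the p-values below measure the spread between these samples only.

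Cholesterol is built from acetyl-CoA through mevalonate, squalene and lanosterol, and fatty acids are built from acetyl-CoA through malonyl-CoA. Both routes draw on the same cytosolic acetyl-CoA and NADPH, and the liver is a main site of both. Most of their enzymes are transcribed under SREBPs, membrane-bound factors that SCAP escorts from the endoplasmic reticulum for cleavage and that the INSIG proteins hold back when sterols are plentiful. SREBP-2, from Srebf2, mainly serves the sterol genes, and SREBP-1c, a product of Srebf1, mainly the fatty acid genes. In liver, Srebf1 is itself raised by insulin and by the nuclear receptor LXR.

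The start regions of 6 members are shown because they carry letters known to be read by SREBP and its partner NF-Y, by MYC or by forkhead factors. Windows of 250 bases before to 50 bases after each start were taken from RefSeq (GRCm38.p6), where 27 of the 32 members were matched and 5 were not. The letters searched on both strands were TCACNCCAC (a sterol regulatory element), CCAAT (the NF-Y site), CACGTG (the E-box read by MYC and related factors) and TGTTTAC (a forkhead core). Each line gives the 250 bases before the start, 5′ to 3′ on the strand of the gene, with matches in capitals. Matches on the opposite strand read ATTGG or GTAAACA. In Fasn, the run of 8 capitals is a CCAAT on each strand, overlapping by 2 bases.
Hmgcs1, chr13:119690101-119690350, plus strand: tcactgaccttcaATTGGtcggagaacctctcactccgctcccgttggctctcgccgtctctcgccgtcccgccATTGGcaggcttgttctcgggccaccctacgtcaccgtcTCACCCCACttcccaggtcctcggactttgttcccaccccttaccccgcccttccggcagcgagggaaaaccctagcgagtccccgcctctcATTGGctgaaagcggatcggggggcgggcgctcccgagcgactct
Msmo1, chr8:64733579-64733828, minus strand: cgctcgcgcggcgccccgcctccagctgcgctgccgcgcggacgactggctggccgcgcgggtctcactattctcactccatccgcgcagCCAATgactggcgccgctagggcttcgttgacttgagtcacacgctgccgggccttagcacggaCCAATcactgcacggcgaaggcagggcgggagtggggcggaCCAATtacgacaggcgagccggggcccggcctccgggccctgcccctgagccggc
Fasn, chr11:120824548-120824797, minus strand: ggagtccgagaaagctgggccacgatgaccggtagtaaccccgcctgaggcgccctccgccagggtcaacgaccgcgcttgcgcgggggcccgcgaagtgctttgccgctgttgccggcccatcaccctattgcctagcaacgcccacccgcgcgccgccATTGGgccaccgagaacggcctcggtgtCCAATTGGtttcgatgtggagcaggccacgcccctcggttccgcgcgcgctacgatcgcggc
Thrsp, chr7:97417551-97417800, minus strand: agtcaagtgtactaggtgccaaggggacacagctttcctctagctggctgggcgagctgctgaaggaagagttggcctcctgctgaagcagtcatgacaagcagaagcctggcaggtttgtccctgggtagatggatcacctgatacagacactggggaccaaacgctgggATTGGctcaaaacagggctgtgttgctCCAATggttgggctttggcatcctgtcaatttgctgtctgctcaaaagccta
Insig1, chr5:28071162-28071411, plus strand: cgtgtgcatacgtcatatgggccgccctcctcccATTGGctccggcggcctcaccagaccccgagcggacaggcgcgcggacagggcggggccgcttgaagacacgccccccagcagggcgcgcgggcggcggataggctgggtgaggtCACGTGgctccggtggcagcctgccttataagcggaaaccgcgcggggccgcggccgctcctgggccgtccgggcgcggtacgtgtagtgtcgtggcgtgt
Elovl6, chr3:129532136-129532385, plus strand: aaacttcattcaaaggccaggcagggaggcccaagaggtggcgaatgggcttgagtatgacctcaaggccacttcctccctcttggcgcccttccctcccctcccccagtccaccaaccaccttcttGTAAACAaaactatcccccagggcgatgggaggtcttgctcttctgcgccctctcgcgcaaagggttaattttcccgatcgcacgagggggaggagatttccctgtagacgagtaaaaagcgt
CCAAT was found in 23 of the 27 matched members (85.2%), against 41.1% of all 27025 symbols with a window. Within the sterol branch it was found in 13 of 14 matched genes (92.9%) and within the fatty acid branch in 6 of 8 (75.0%). The sterol element was found in 1 member, Hmgcs1 (3.70%, against 1.44% of all symbols). The E-box was found in 4 members, Dhcr7, Insig1, Sc5d and Scap (14.8%, against 8.09%). The forkhead core was found in 1 member, Elovl6 (3.70%, against 4.05%). These counts describe letters in short windows and are no evidence for or against binding.

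The libraries held 13.1 to 20.5 M reads in listed genes, and the authors had scaled the library sizes by factors that averaged 0.675 in NL, 1.28 in c-MYC and 1.47 in c-MYC/FOXO1AAA. Foxo1 was 7.14 FPKM ± 0.532 (n = 4, SD) in NL, 5.63 FPKM ± 0.721 (n = 3, SD) in c-MYC and 83.1 FPKM ± 12.8 (n = 3, SD) in c-MYC/FOXO1AAA, which matches the labels. Mouse Myc was 11.2 FPKM ± 8.17 (n = 4, SD) in NL and 0.771 FPKM ± 0.254 (n = 3, SD) in c-MYC. It does not check the c-MYC label, because the sources used here do not state whether transgene reads were counted at that gene. The summed level of 7 hepatocyte markers, among them Alb and Apob, ran from 80549 to 89682 FPKM in NL, from 4102 to 6420 FPKM in c-MYC and from 1029 to 1866 FPKM in c-MYC/FOXO1AAA. Alb and Apoa1 held the largest parts of the sum in NL, with means of 43170 and 23950 FPKM. The other markers fell less in c-MYC. Hnf4a fell least there, with means of 183 FPKM in NL, 94.4 FPKM in c-MYC and 7.18 FPKM in c-MYC/FOXO1AAA. All 7 hepatocyte markers were detected in every group, whereas 5 of the 7 skeletal muscle markers had at most 3 reads in every NL library. The summed level of 7 skeletal muscle markers was 1.22 to 1.98 FPKM in NL, 3.45 to 7.73 FPKM in c-MYC and 222.1 to 309 FPKM in c-MYC/FOXO1AAA, and that of 7 stellate cell and fibroblast markers was 82.8 to 105 FPKM, 10.7 to 34.2 FPKM and 358.1 to 453.9 FPKM. Dcn held the largest part of the last sum in NL and c-MYC/FOXO1AAA, with means of 69.8 and 236 FPKM. By the test given below, 4 of these 7 were called lower and 1, Col1a1, higher in c-MYC than in NL. Of all genes tested, 23.6% and 24.5% were. In c-MYC/FOXO1AAA, 5 were called higher and 1, Lrat, lower than in NL, against 31.2% and 26.6% of all genes. In bulk tissue, fewer cells of a type and less RNA per cell cannot be told apart, and the part of these marker shifts in the results below was not tested.

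The first comparison asked how the synthesis genes differ between c-MYC tumors and normal liver. Lower expression in c-MYC was called for 21 of the 32 members and higher expression for none (0 of 32). The 14017 genes with at least 1 FPKM in at least 3 libraries were tested in limma with treat, which asks whether a change exceeds 1.5-fold, and called at a Benjamini-Hochberg adjusted p under 0.05. Of all genes tested, 23.6% were called lower and 24.5% higher. The c-MYC libraries lay entirely below the NL libraries for 27 of 32 members, against 34.9% of all genes tested. The median log2 fold change was -1.77 over the sterol branch and -4.34 over the fatty acid branch, against 0.08 over all genes tested. Called genes were 13 of 18 in the sterol branch, 6 of 9 in the fatty acid branch and 2 of 5 among the regulators. The fatty acid genes ran from -9.39 (Thrsp) to -0.53 (Acaca), and their median is the value of Acacb. Acaca, Fasn and Elovl6 were not called.

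**Figure D1:**
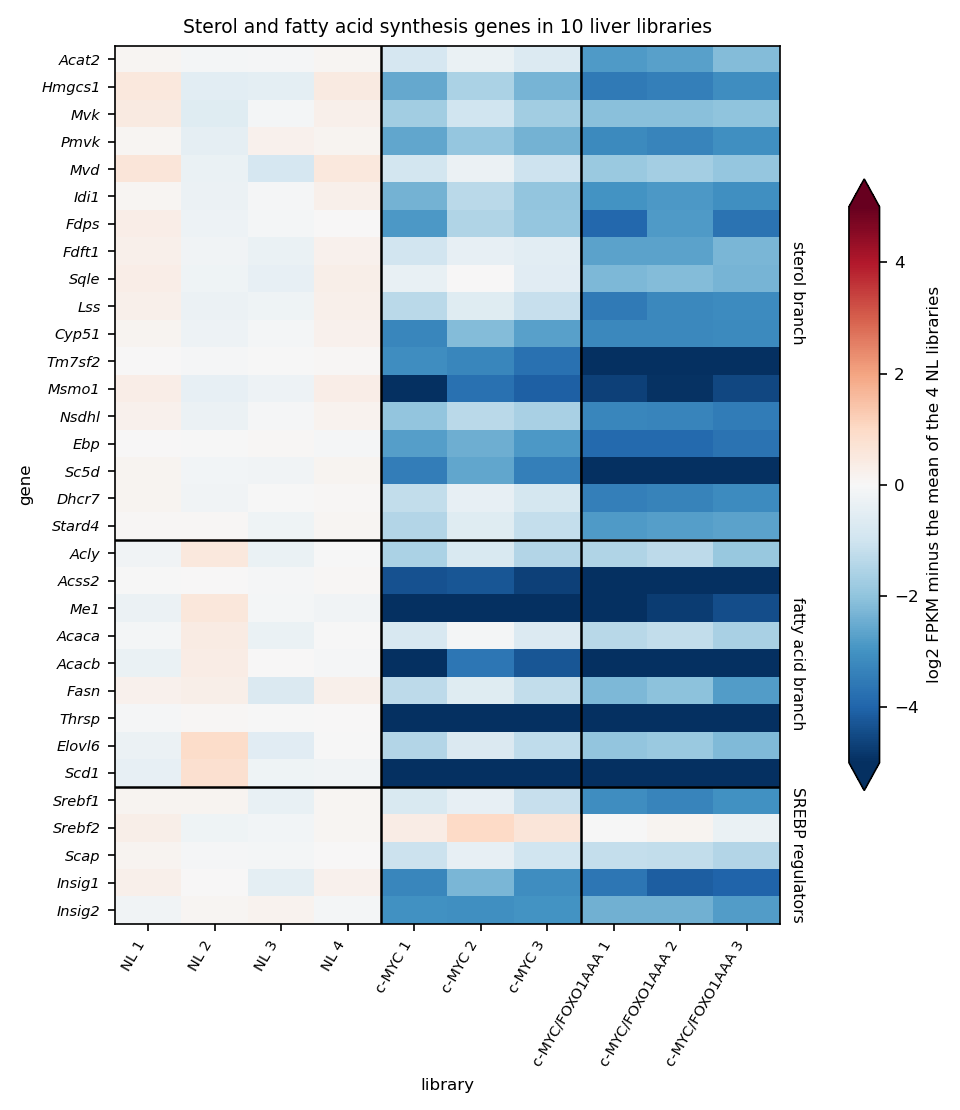
Log2 FPKM of the 32 members (rows, in pathway order) in the 10 libraries (columns), shown as the difference from the mean of the 4 NL libraries, with the color scale ending at 5 in both directions. Blue fills most of the c-MYC columns and nearly all of the c-MYC/FOXO1AAA columns, while Srebf2 stays near white or turns red in c-MYC.

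The second comparison asked what FOXO1AAA adds to c-MYC tumors. Against c-MYC, lower expression in c-MYC/FOXO1AAA was called for 13 members and higher expression for 2, and 17 were not called. Of all genes tested, 12.7% were called lower and 15.9% higher. The c-MYC/FOXO1AAA libraries lay entirely below the c-MYC libraries for 24 of 32 members, against 30.7% of all genes tested. Here the sterol branch had the lower median, with a log2 fold change of -1.51 and 10 of 18 genes called lower. In the fatty acid branch the median was -0.88, with 2 of 9 genes called lower and 2 called higher. The median over all genes tested was 0.03. Whether the branches themselves differ was not tested.

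The third comparison set c-MYC/FOXO1AAA against NL. Lower expression was called for 31 of the 32 members and higher expression for none (0 of 32), against 26.6% of all genes called lower and 31.2% called higher. The same 31 members had groups that did not overlap, against 36.0% of all genes. The median log2 fold change was -3.25 over the sterol branch and -4.84 over the fatty acid branch, and 0.21 over all genes tested. The 3 comparisons share libraries and are not independent of each other.

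**Figure D2:**
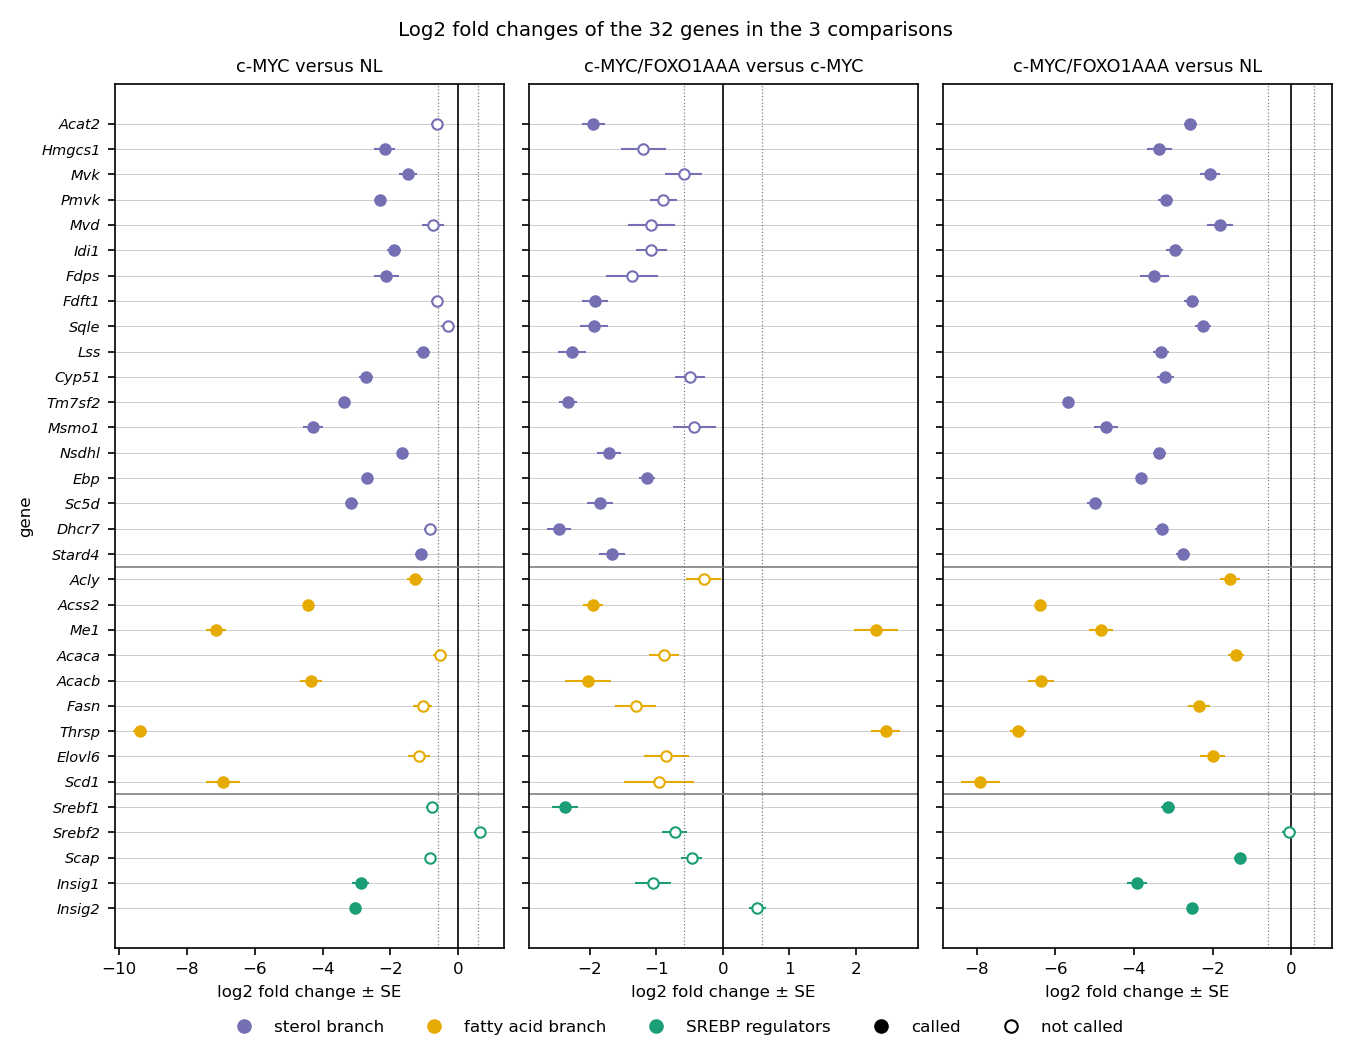
Log2 fold changes with their standard errors (limma) for the 32 members in the 3 comparisons, with filled points called and open points not called, and dotted lines at 1.5-fold (0.58 on the log2 scale). The x axes differ in range. Sqle and Acat2 moved little in c-MYC versus NL and lie low between the tumor groups. Tm7sf2 moved much in both, and Mvd, which also moved little in c-MYC versus NL, was not called in either. Both comparisons hold the c-MYC libraries, with opposite sign. Me1 and Thrsp lie on the positive side between the tumor groups.

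These counts rest on the authors' scaling. When every library was set to an equal FPKM total, the log2 median over all genes moved from 0.08 to 1.01 in c-MYC versus NL and from 0.21 to 1.31 in c-MYC/FOXO1AAA versus NL, and of the called genes, the part that was higher went from 51.0% to 78.8% and from 54.0% to 79.5%. The members called lower then numbered 13 and 25. The calls lost were those of Acly, Fdps, Hmgcs1, Idi1, Lss, Mvk, Nsdhl and Stard4 in c-MYC versus NL and of Acaca, Acly, Elovl6, Mvd, Mvk and Scap in c-MYC/FOXO1AAA versus NL. With quantile normalization, the calls of Acly in both comparisons and of Lss and Stard4 in the first were lost. Against the median of all genes, the sterol branch stood at -1.85 and the fatty acid branch at -4.42 in c-MYC versus NL. Equal totals shift all genes of a library together, so these differences were fixed in advance under that scaling. With quantile normalization, which can move them, they were -1.79 and -4.03.

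Srebf1 (chromosome 11, 60199089 to 60222581, GRCm38) was 129, 127, 90.2 and 123 FPKM in NL 1 to NL 4. It was 68.3, 88.2 and 52.3 FPKM in the c-MYC libraries and 13.7, 11.9 and 14.1 FPKM in the c-MYC/FOXO1AAA libraries. The 3 groups did not overlap, and the c-MYC/FOXO1AAA libraries stood far below the others. The log2 fold change was -2.37 (SE 0.19, adjusted p = 1.76e-05 by limma) against c-MYC, a 5.15-fold lower level. For c-MYC against NL it was -0.77 (SE 0.18, adjusted p = 0.282 by limma), which did not pass the test and turned to 0.16 on equal FPKM totals. The counts are per gene and do not separate SREBP-1a from SREBP-1c.

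Srebf2 (chromosome 15, 82147181 to 82205379) was 27.6, 19.3, 20.3 and 24.0 FPKM in NL. It was 28.9, 44.96 and 34.5 FPKM in c-MYC and 22.2, 24.8 and 18.2 FPKM in c-MYC/FOXO1AAA. The c-MYC libraries were above all others, although c-MYC 1 exceeded NL 1 only slightly, and the NL and c-MYC/FOXO1AAA libraries overlapped. None of the 3 comparisons passed the test, with log2 fold changes of 0.65 for c-MYC versus NL (SE 0.18, adjusted p = 0.558 by limma), -0.72 for c-MYC/FOXO1AAA versus c-MYC (SE 0.19, adjusted p = 0.577 by limma) and -0.07 for c-MYC/FOXO1AAA versus NL (SE 0.18, adjusted p = 1 by limma). After rescaling to the same FPKM total, Srebf2 was called higher than in NL in both tumor groups, with log2 fold changes of 1.58 in c-MYC and 1.03 in c-MYC/FOXO1AAA. Srebf2 was thus the 1 member not called lower in c-MYC/FOXO1AAA against NL.

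Scap, the escort of the SREBPs, was 64.2, 57.5, 55.0 and 60.3 FPKM in NL, 28.2, 44.1 and 29.7 FPKM in c-MYC and 26.2, 25.01 and 21.3 FPKM in c-MYC/FOXO1AAA. Each group lay below the one before it without overlap. The change passed the test between c-MYC/FOXO1AAA and NL, with a log2 fold change of -1.30 (SE 0.15, adjusted p = 0.000877 by limma). Between c-MYC and NL it was -0.83 (adjusted p = 0.128 by limma), and it was called without c-MYC 2 (-1.03, adjusted p = 0.00418 by limma) and turned to 0.10 on equal FPKM totals.

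Insig1 (chromosome 5, 28071363 to 28078662), which retains SCAP and is itself an SREBP target, was 195, 164, 116 and 190.2 FPKM in NL. It was 17.0, 33.8 and 19.1 FPKM in c-MYC and 13.2, 9.32 and 10.04 FPKM in c-MYC/FOXO1AAA. The groups did not overlap. The log2 fold change was -2.88 in c-MYC versus NL (SE 0.26, adjusted p = 1.28e-05 by limma) and -1.05 in c-MYC/FOXO1AAA versus c-MYC (SE 0.27, adjusted p = 0.172 by limma), the latter not called.

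Insig2 (chromosome 1, 121304353 to 121332589), whose liver transcript is known to fall under insulin, was 72.4, 86.2, 91.1 and 76.2 FPKM in NL. It was 9.88, 9.58 and 10.2 FPKM in c-MYC and 15.4, 15.48 and 11.9 FPKM in c-MYC/FOXO1AAA. It was 8.21-fold lower in c-MYC than in NL, with a log2 fold change of -3.04 (SE 0.12, adjusted p = 2.69e-08 by limma). Every c-MYC/FOXO1AAA library exceeded every c-MYC library, which among the regulators was seen only for Insig2, but the log2 fold change of 0.52 (SE 0.13, adjusted p = 1 by limma) did not pass the 1.5-fold test.

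The order of the regulators by level changed between groups. The deposited length of Insig2 (1292 bases) is that of a short transcript, and its levels were recomputed for the longest coding transcript (2697 bases) to compare genes, which gave 39.0 FPKM in NL, 4.74 FPKM in c-MYC and 6.82 FPKM in c-MYC/FOXO1AAA. In NL the mean levels ran from Insig1 (166 FPKM ± 36.2, n = 4, SD) and Srebf1 (117 FPKM ± 18.2, n = 4, SD) through Scap (59.2 FPKM ± 3.97, n = 4, SD) and Insig2 to Srebf2 (22.8 FPKM ± 3.80, n = 4, SD). In c-MYC, Srebf1 led with 69.6 FPKM ± 18 (n = 3, SD), and Srebf2 (36.1 FPKM ± 8.16, n = 3, SD) and Scap (34.0 FPKM ± 8.77, n = 3, SD) were within their spread of each other. In c-MYC/FOXO1AAA, Scap (24.2 FPKM ± 2.53, n = 3, SD) and Srebf2 (21.7 FPKM ± 3.36, n = 3, SD) were again within their spread and stood above Srebf1 (13.2 FPKM ± 1.18, n = 3, SD) and Insig1 (10.9 FPKM ± 2.07, n = 3, SD).

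**Figure D3:**
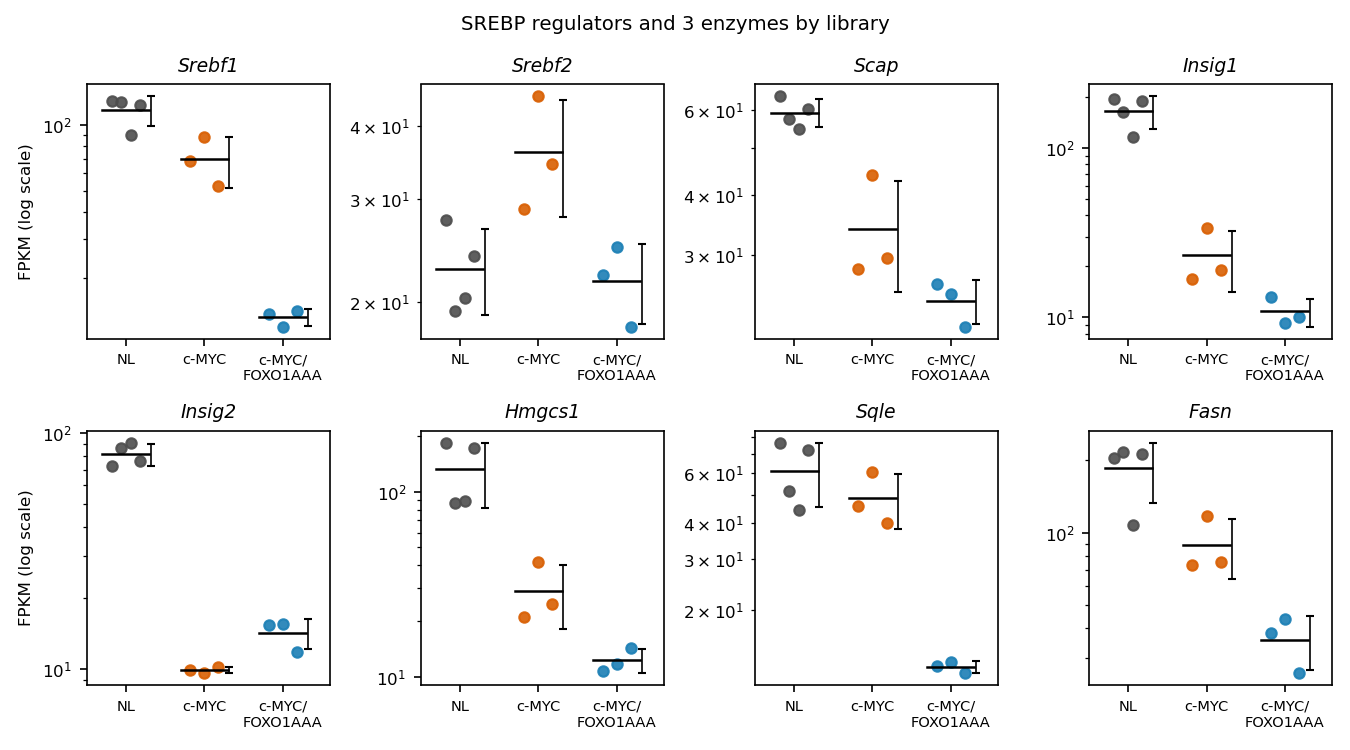
FPKM (log axis, differing range) of the 5 regulators and of Hmgcs1, Sqle and Fasn, 1 point per library, with the group mean as a line and the SD as a bar beside it. Srebf1 and Sqle drop mainly between c-MYC and c-MYC/FOXO1AAA, Insig1, Insig2 and Hmgcs1 mainly between NL and c-MYC, and Srebf2 is highest in c-MYC, where no difference passed the test.

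In the mevalonate steps, 5 of 7 genes were called lower in c-MYC than in NL. Hmgcs1, which makes HMG-CoA and carries the sterol element shown above, fell from 132.6 FPKM ± 51.5 (n = 4, SD) to 29.1 FPKM ± 10.9 (n = 3, SD), a log2 fold change of -2.17 (SE 0.31, adjusted p = 0.000832 by limma). Pmvk, the phosphomevalonate kinase, fell from 98.9 FPKM ± 18.9 (n = 4, SD) to 20.1 FPKM ± 4.80 (n = 3, SD). Mvk, the mevalonate kinase, fell by 1.49 on the log2 scale, Idi1, the isopentenyl diphosphate isomerase, by 1.89, and Fdps, the farnesyl diphosphate synthase, by 2.12. Fdps held only 7 to 85 reads per library. It also shares 26.7% of its exon bases with Gm43738, a protein-coding gene on the same strand, so its values are uncertain. Acat2 (thiolase) and Mvd (mevalonate diphosphate decarboxylase) were not called, at -0.62 and -0.75, and both signs turned on equal FPKM totals.

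Acat2 (chromosome 17, 12942890 to 12960747) was the mevalonate gene called in c-MYC/FOXO1AAA versus c-MYC. It was 75.2, 66.1, 67.5 and 75.7 FPKM in NL, 39.8, 56.1 and 43.8 FPKM in c-MYC and 10.1, 10.9 and 15.7 FPKM in c-MYC/FOXO1AAA. All of the last 3 stood apart from both other groups, 3.85-fold below c-MYC (log2 fold change -1.94, SE 0.17, adjusted p = 6.14e-05 by limma). The other 6 mevalonate genes had log2 fold changes of -1.37 to -0.58 there and were not called, although the groups did not overlap for 5 of them. Without c-MYC 1, Idi1 (-1.31, adjusted p = 0.0143 by limma) and Fdps (-1.75, adjusted p = 0.0206 by limma) were called, and so was Fdps without c-MYC/FOXO1AAA 2 (-1.69, adjusted p = 0.0386 by limma). Both were also called with quantile normalization, Idi1 with equal medians, and both, like Hmgcs1, Pmvk and Mvd, without a fold threshold.

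Of the 3 genes of squalene and lanosterol formation, 1 was called lower in c-MYC than in NL and all 3 were called lower between the tumor groups. Sqle, the squalene epoxidase, was 61.1 FPKM ± 15.4 (n = 4, SD) in NL, 48.8 FPKM ± 10.6 (n = 3, SD) in c-MYC and 12.6 FPKM ± 0.602 (n = 3, SD) in c-MYC/FOXO1AAA. Its NL and c-MYC libraries overlapped (log2 fold change -0.31, adjusted p = 1 by limma, and 0.62 on equal FPKM totals), and it fell by 1.93 from c-MYC to c-MYC/FOXO1AAA (SE 0.21, adjusted p = 0.000256 by limma). Fdft1, the squalene synthase, was 101.3 FPKM ± 19.99 (n = 4, SD), 65.7 FPKM ± 12.4 (n = 3, SD) and 17.4 FPKM ± 2.93 (n = 3, SD), with a log2 fold change of -1.91 (SE 0.20, adjusted p = 0.00017 by limma) at that step. Fdft1 shares 18.3% of its exon bases with Ctsb on the opposite strand, Scap 13.2% with a gene of unknown type and Hmgcs1 12.1% with an antisense RNA, and whether counting used strand is not given in the sources used here.

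Lss (chromosome 10, 76531588 to 76557138), the lanosterol synthase, was 622, 423, 455 and 624 FPKM in NL, 205, 343 and 233 FPKM in c-MYC and 44.8, 56.0 and 58.8 FPKM in c-MYC/FOXO1AAA. These levels use a deposited length of 314 bases, and the mean NL level is 35.8 FPKM for the longest coding transcript. The 3 groups did not overlap. Lss fell by 2.26 from c-MYC to c-MYC/FOXO1AAA (SE 0.22, adjusted p = 6.4e-05 by limma). Against NL, c-MYC was at -1.04 (SE 0.20, adjusted p = 0.048 by limma), a call near the threshold that was lost in 14 of 23 alternatives. These were the omission of NL 1, NL 4, c-MYC 1, c-MYC 3, c-MYC/FOXO1AAA 2 or c-MYC/FOXO1AAA 3, and both other pseudocounts. The others were equal FPKM totals (-0.12), quantile normalization (-0.23), a 2-fold threshold and no trend and robust estimation. The call was also lost in a fit of the 2 groups alone and with the replicate block. Only NL has a replicate 4, so the block takes up NL 4 and gave the value found without it (-0.96).

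The genes from lanosterol to cholesterol held the largest differences of the sterol branch. Msmo1 (chromosome 8, 64718139 to 64733792), the methylsterol monooxygenase, was 198, 117, 134 and 199 FPKM in NL, 4.76, 12.0 and 9.43 FPKM in c-MYC and 6.29, 5.18 and 6.81 FPKM in c-MYC/FOXO1AAA. Both tumor groups stood far below NL and overlapped each other. Msmo1 was 19.4-fold lower in c-MYC than in NL, with a log2 fold change of -4.28 (SE 0.30, adjusted p = 1.66e-06 by limma), and was not called between the tumor groups (-0.43, SE 0.32, adjusted p = 1 by limma). Cyp51 (chromosome 5, 4081145 to 4104746), the lanosterol demethylase, had the same order, with 90.4, 69.0, 76.0 and 94.7 FPKM in NL, 8.62, 18.3 and 12.4 FPKM in c-MYC and 8.87, 8.79 and 8.99 FPKM in c-MYC/FOXO1AAA. Its log2 fold change was -2.71 (SE 0.21, adjusted p = 5.35e-06 by limma) in c-MYC versus NL and -0.49 (SE 0.23, adjusted p = 1 by limma) in c-MYC/FOXO1AAA versus c-MYC.

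Tm7sf2 (chromosome 19, 6062821 to 6068373), a sterol reductase acting on the ring, was 218, 209.6, 213 and 226 FPKM in NL, 24.9, 22.8 and 16.5 FPKM in c-MYC and 4.41, 4.17 and 4.10 FPKM in c-MYC/FOXO1AAA. The libraries of a group were close together and the groups far apart. Tm7sf2 fell by 3.36 on the log2 scale from NL to c-MYC (SE 0.13, adjusted p = 1.73e-08 by limma) and by 2.32 from c-MYC to c-MYC/FOXO1AAA (SE 0.14, adjusted p = 2e-06 by limma). Its 51.2-fold lower level in c-MYC/FOXO1AAA than in NL was the largest difference among the 18 sterol genes. Tm7sf2 shares 12.1% of its exon bases with Vps51 on the same strand, so reads from that gene could have been counted with it.

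Sc5d (chromosome 9, 42251595 to 42264256), the lathosterol desaturase, was 900.3, 745, 729 and 895 FPKM in NL, 74.0, 134.5 and 77.1 FPKM in c-MYC and 25.4, 25.3 and 25.9 FPKM in c-MYC/FOXO1AAA, on a deposited length of 703 bases. No libraries overlapped between groups, and the log2 fold changes were -3.15 (SE 0.19, adjusted p = 4.63e-07 by limma) and -1.84 (SE 0.20, adjusted p = 0.000284 by limma) in the first 2 comparisons. Ebp (chromosome X, 8185329 to 8193512), the sterol isomerase, was 206, 202, 213 and 196 FPKM in NL, 30.2, 37.6 and 28.0 FPKM in c-MYC and 13.7, 13.7 and 15.8 FPKM in c-MYC/FOXO1AAA. It fell by 2.69 and then by 1.14 (SE 0.11 and 0.12, adjusted p = 4.05e-08 and 0.00208 by limma). Nsdhl, the sterol dehydrogenase, fell in a like way, by 1.64 and 1.71 (adjusted p = 0.000138 and 0.000269 by limma).

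Dhcr7 (chromosome 7, 143823145 to 143848410), which catalyzes the last step of the Kandutsch-Russell route, was 96.6, 76.8, 86.4 and 91.8 FPKM in NL, 37.0, 65.9 and 47.9 FPKM in c-MYC and 8.22, 8.65 and 9.97 FPKM in c-MYC/FOXO1AAA. The groups did not overlap. Its log2 fold change of -2.45 (SE 0.18, adjusted p = 9.13e-06 by limma) was the most negative of all 32 members in c-MYC/FOXO1AAA versus c-MYC. In c-MYC versus NL it was -0.84 (SE 0.17, adjusted p = 0.155 by limma), not called, and it was called without c-MYC 2 (-1.06, adjusted p = 0.0109 by limma) and turned to 0.09 on equal FPKM totals. Stard4, a cytosolic sterol carrier, fell from 51.5 FPKM ± 4.81 (n = 4, SD) to 24.8 FPKM ± 8.03 (n = 3, SD) and 7.59 FPKM ± 0.415 (n = 3, SD). Its first fall (log2 fold change -1.10, adjusted p = 0.018 by limma) was not called without c-MYC 1 (-0.91, adjusted p = 0.0858 by limma) or c-MYC 3 (-1.04, adjusted p = 0.0596 by limma).

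In the fatty acid branch the spread between genes was far wider. Thrsp (chromosome 7, 97412938 to 97417730), also known as Spot 14, a lipogenic factor responsive to thyroid hormone and carbohydrate, was 2129, 2283, 2147 and 2223 FPKM in NL, and its NL mean of 2196 FPKM was the highest of the 32 members. It was 2.27, 4.33 and 3.55 FPKM in c-MYC (51 to 102 reads) and 15.3, 22.9 and 16.0 FPKM in c-MYC/FOXO1AAA. The groups did not overlap in either step, and c-MYC was the lowest. Thrsp was 672-fold lower in c-MYC than in NL, a log2 fold change of -9.39 (SE 0.21, adjusted p = 2.88e-10 by limma). It was 5.44-fold higher with FOXO1AAA than in c-MYC (2.44, SE 0.22, adjusted p = 3.41e-05 by limma) but still 123.5-fold below NL.

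Me1 (chromosome 9, 86581371 to 86695953), the cytosolic malic enzyme that supplies NADPH, followed the same order. It was 62.4, 115.7, 72.5 and 68.2 FPKM in NL, 0.367, 0.568 and 0.780 FPKM in c-MYC (20 to 45 reads) and 1.90, 2.85 and 3.61 FPKM in c-MYC/FOXO1AAA (151 to 277 reads). The log2 fold change was -7.15 (SE 0.31, adjusted p = 2.36e-08 by limma) in c-MYC versus NL and 2.30 (SE 0.33, adjusted p = 0.00102 by limma) in c-MYC/FOXO1AAA versus c-MYC. Me1 and Thrsp were the only members called higher in the 3 comparisons by the 1.5-fold test under the authors' scaling. Without a fold threshold, Srebf2 was also called higher in c-MYC versus NL and Insig2 between the tumor groups.

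Scd1 (chromosome 19, 44394455 to 44407879), the stearoyl-CoA desaturase of liver, was 1022, 2358, 1185 and 1207 FPKM in NL, 8.09, 21.3 and 7.86 FPKM in c-MYC and 3.84, 12.6 and 3.83 FPKM in c-MYC/FOXO1AAA. Replicate 2 was highest in each group, and the tumor groups overlapped. Scd1 fell by 6.94 from NL to c-MYC (SE 0.50, adjusted p = 1.22e-06 by limma) and was not called between the tumor groups (-0.96, SE 0.53, adjusted p = 0.595 by limma). Elovl6, the elongase that works with Scd1, was 66.9 FPKM ± 33.2 (n = 4, SD) in NL, 28.5 FPKM ± 8.26 (n = 3, SD) in c-MYC and 15.51 FPKM ± 1.96 (n = 3, SD) in c-MYC/FOXO1AAA. For Elovl6 the difference between c-MYC and NL (-1.15, SE 0.31) gave a limma adjusted p of 0.0979, which became 0.0388 without NL 3, 0.0484 without c-MYC 2 and 0.0427 with the replicate number as a block.

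Acss2 (chromosome 2, 155517948 to 155585724), which makes acetyl-CoA from acetate, was 967, 980.5, 928.5 and 1028 FPKM in NL, 48.0, 49.9 and 37.9 FPKM in c-MYC and 9.30, 12.7 and 13.4 FPKM in c-MYC/FOXO1AAA, on a deposited length of 445 bases. Libraries of a group lay close together, and the groups did not overlap. It fell by 4.44 (SE 0.14, adjusted p = 3.62e-09 by limma) and by a further 1.95 (SE 0.15, adjusted p = 2e-05 by limma). Acacb (chromosome 5, 114146535 to 114250761), the mitochondrial form of acetyl-CoA carboxylase, was 22.4, 36.9, 29.2 and 27.3 FPKM in NL, 0.804, 2.35 and 1.47 FPKM in c-MYC and 0.306, 0.428 and 0.315 FPKM in c-MYC/FOXO1AAA (50 to 105 reads). It fell by 4.34 (SE 0.33, adjusted p = 1.79e-06 by limma) and by 2.03 (SE 0.35, adjusted p = 0.00441 by limma), and with a pseudocount of 1 the second fall was not called (-0.88, adjusted p = 0.337 by limma).

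Fasn (chromosome 11, 120805846 to 120824547), the fatty acid synthase, was 185.5 FPKM ± 52.1 (n = 4, SD) in NL, 88.6 FPKM ± 24.9 (n = 3, SD) in c-MYC and 35.8 FPKM ± 9.04 (n = 3, SD) in c-MYC/FOXO1AAA. The step from NL to c-MYC (log2 fold change -1.05, SE 0.28, adjusted p = 0.127 by limma) and the step to c-MYC/FOXO1AAA (-1.31, SE 0.30, adjusted p = 0.0641 by limma) were not called. Both were called without NL 3, the library with the lowest Fasn in NL (adjusted p = 0.0128 and 0.0183 by limma). The second step holds no NL library, and its log2 fold change stayed at -1.31 without NL 3. All groups share an estimate of the spread, which NL 3 enters. Without a fold threshold both steps were called again. The second was also called with equal medians, in a fit of the 2 groups alone and with the replicate number as a block (adjusted p from 0.0102 to 0.0378 by limma). Over both steps, Fasn was 5.11-fold lower in c-MYC/FOXO1AAA than in NL (adjusted p = 0.000139 by limma). Acaca, the cytosolic acetyl-CoA carboxylase, was 18.3 FPKM ± 4.20 (n = 4, SD), 12.7 FPKM ± 3.40 (n = 3, SD) and 6.79 FPKM ± 0.878 (n = 3, SD), and passed the test only between c-MYC/FOXO1AAA and NL (-1.41, adjusted p = 0.0024 by limma). Its sign in c-MYC versus NL (-0.53) turned to 0.40 on equal FPKM totals.

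Acly, which makes cytosolic acetyl-CoA from citrate, was 135.4 FPKM ± 38.0 (n = 4, SD) in NL, 56.3 FPKM ± 18.2 (n = 3, SD) in c-MYC and 45.3 FPKM ± 9.01 (n = 3, SD) in c-MYC/FOXO1AAA. The first difference (-1.28, SE 0.25, adjusted p = 0.0206 by limma) was not called without c-MYC 1 (adjusted p = 0.0835 by limma) or without c-MYC 3 (0.0695), and the tumor groups overlapped (-0.29, adjusted p = 1 by limma).

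**Figure D4:**
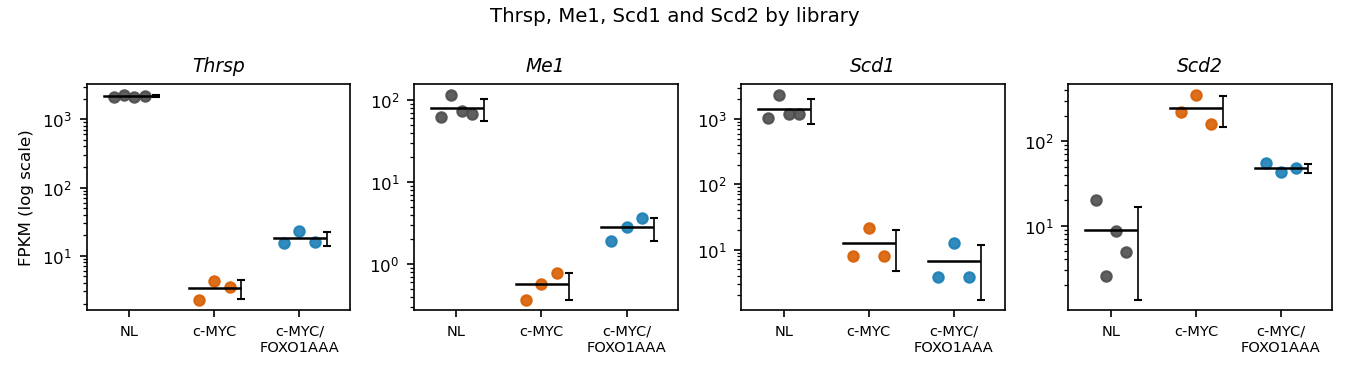
FPKM (log axis, differing range) of Thrsp, Me1, Scd1 and Scd2, 1 point per library, with the group mean as a line and the SD as a bar. Thrsp and Me1 are lowest in c-MYC and partly higher in c-MYC/FOXO1AAA, whereas Scd2 is highest in c-MYC, with 161 to 356 FPKM.

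Other genes of the same pathways, from lists that do not hold the members, were set beside them. Of 10 further sterol and isoprenoid genes, 5 were called lower and 2 higher in c-MYC than in NL, and 6 were called lower and 1 higher with FOXO1AAA than in c-MYC. For this and the next 3 lists, the shares over all genes tested were 23.6% lower and 24.5% higher in the first comparison and 12.7% lower and 15.9% higher in the second. Hsd17b7, a ketosteroid reductase of the pathway, fell by 1.85 between the tumor groups, and its log2 fold change from NL to c-MYC/FOXO1AAA was -3.47. Lbr, a nuclear envelope protein with the same sterol reductase activity as Tm7sf2, rose by 2.46 in c-MYC, and Pdss1, of ubiquinone synthesis, by 2.70.

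Of 24 further fatty acid and triglyceride genes, 17 were called lower and 2 higher in c-MYC than in NL, and 13 lower and 2 higher with FOXO1AAA than in c-MYC. Scd2, the desaturase isoform of brain and of neonatal liver, was 19.9, 2.51, 8.70 and 4.95 FPKM in NL, 222, 356 and 161 FPKM in c-MYC and 54.9, 43.2 and 47.6 FPKM in c-MYC/FOXO1AAA. In c-MYC versus NL it ran opposite to Scd1. Scd2 had a log2 fold change of 5.10 (SE 0.57, adjusted p = 3.77e-05 by limma) in c-MYC versus NL and -2.27 (SE 0.61, adjusted p = 0.0373 by limma) in c-MYC/FOXO1AAA versus c-MYC. The paralogs are similar in sequence, and how reads that fit both were counted is not given in the sources used here. Elovl3 was 20.6 to 37.0 FPKM in NL. In c-MYC it had 0, 0 and 3 reads, and in c-MYC/FOXO1AAA it was 1.09 to 2.09 FPKM. Lpin1, a phosphatidate phosphatase, fell by 4.48 in c-MYC. Acsl1, an acyl-CoA synthetase, and Dgat2, of triglyceride synthesis, fell by 3.55 and 3.33 from c-MYC to c-MYC/FOXO1AAA. Against NL, the log2 fold changes of c-MYC/FOXO1AAA were -5.79 for Elovl2, -5.09 for Acsl1 and -4.98 for Fads2.

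A further list of 17 genes held genes of SREBP control together with other lipid regulators such as Mlxipl and Mlx. Of these 17, 3 were called lower and 2 higher in c-MYC than in NL. With FOXO1AAA, 5 were called lower than in c-MYC, Mlxipl and Mlx among them, and none (0 of 17) higher. In the first comparison both counts were below the shares over all genes. Mlxipl, which encodes the carbohydrate-responsive factor ChREBP, was 70.0 FPKM ± 13.4 (n = 4, SD) in NL, 31.2 FPKM ± 4.62 (n = 3, SD) in c-MYC and 3.24 FPKM ± 1.49 (n = 3, SD) in c-MYC/FOXO1AAA. Its log2 fold change was -1.16 in c-MYC versus NL (SE 0.28, adjusted p = 0.0708 by limma) and -3.37 in c-MYC/FOXO1AAA versus c-MYC (SE 0.30, adjusted p = 2.29e-05 by limma). Nr1h3, which encodes LXRα, fell by 2.36 in c-MYC and Nr0b2, which encodes the nuclear receptor SHP, by 6.21. Erlin1 fell by 1.69 from c-MYC to c-MYC/FOXO1AAA.

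Of 13 genes of cholesterol uptake, storage and efflux, 6 were called lower in each of the first 2 comparisons, with 2 and 1 called higher. Abcg5 and Abcg8, the sterol exporters, had log2 fold changes of -8.68 and -7.48 in c-MYC, where they had 2 to 17 and 8 to 21 reads, and Npc1 fell by 3.04. Soat2, of cholesterol ester formation in cells, and Lcat, of cholesterol ester formation in plasma, had log2 fold changes of -3.82 and -2.94 from c-MYC to c-MYC/FOXO1AAA.

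Within NL, the libraries were not ordered alike in the 2 branches. NL 1 and NL 4 were the 2 highest NL libraries for 15 of 18 sterol genes (83.3%), against 26.1% of all genes tested, and for none of the 9 fatty acid genes. Hmgcs1 was 182 and 172 FPKM in NL 1 and NL 4, and 87.0 and 89.4 FPKM in NL 2 and NL 3. NL 2 was the highest NL library for 8 of 9 fatty acid genes (88.9%), against 17.6% of all genes tested, and was the highest for 0 of 18 sterol genes. For Elovl6, NL 2 was 115.3 FPKM and the others 41.6 to 60.9 FPKM. Members of a pathway are not independent of each other, and these are descriptions of single libraries without a test.

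In c-MYC, replicate 2 was the highest library for 17 of 18 sterol genes (94.4%), 8 of 9 fatty acid genes (88.9%) and 4 of 5 regulators (80.0%), against 37.5% of all genes tested. The median member was 0.44 above its group mean on the log2 scale in both branches. The summed hepatocyte markers were also highest in c-MYC 2, at 6420 FPKM against 4279 and 4102 FPKM, and their part in this was not tested. The members called lower in c-MYC than in NL numbered 24 without c-MYC 2, and 18 without c-MYC 1 or without c-MYC 3, and without c-MYC 2 the sterol median between the tumor groups was -1.24. In c-MYC/FOXO1AAA, replicate 2 was the highest for 7 of 9 fatty acid genes (77.8%), against 33.9% of all genes, and replicate 3 for 12 of 18 sterol genes (66.7%), against 34.5%. Replicate 2 was thus highest for most fatty acid genes in every group. Over all genes tested, same-numbered libraries did not deviate together (r from -0.04 to 0.03). Whether the replicate numbers mark a shared batch for the fatty acid genes was not tested.

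**Figure D5:**
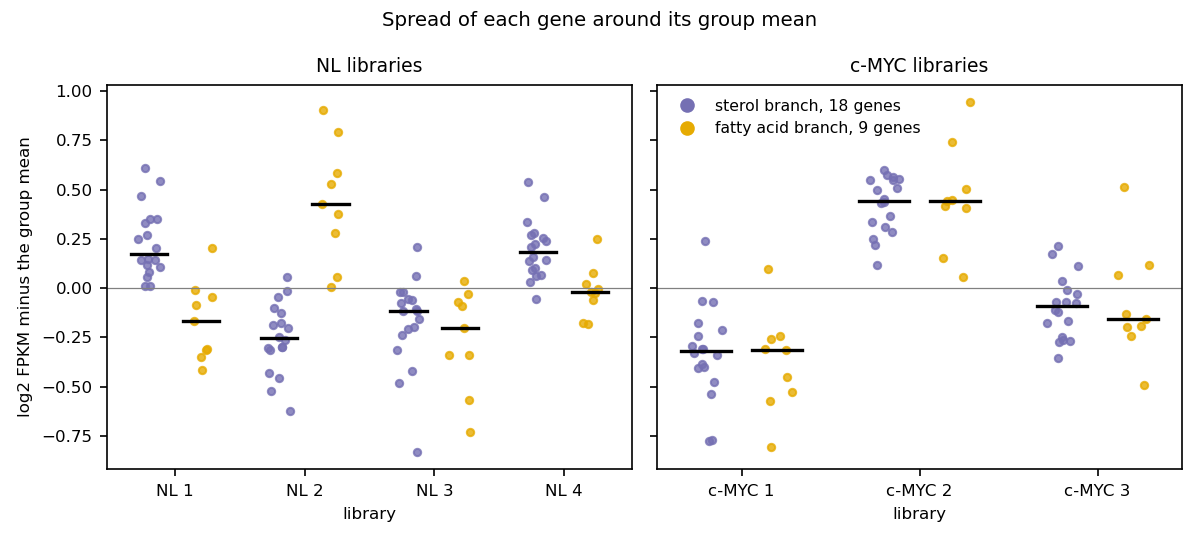
Log2 FPKM of each sterol gene (n = 18) and each fatty acid gene (n = 9) minus the mean of its group, by library, for NL (left) and c-MYC (right), with black lines at the medians. In NL the sterol median is highest in NL 4 (0.19) and NL 1 (0.17) and the fatty acid median in NL 2 (0.43), while in c-MYC both medians are highest in c-MYC 2 (0.44).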

How the data were processed

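Total RNA of mouse liver and liver tumors was sequenced after poly(A) capture or rRNA removal (the labels name both) by the authors, who counted reads by gene and analysed them with edgeR. Reads were counted per Ensembl gene, IDs were converted to Entrez, and symbols came from org.Mm.eg.db. The aligner, the counter and the annotation release are not given in the sources used here. The submitters' processing notes name GRCm38 and FastQC 0.11.7. The authors deposited log2 FPKM, to which a prior count (2 on average, in proportion to library size) had been added. Whole reads and gene lengths were recovered from these values with a single solution for 16692 of 16697 genes (99.97%).

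The members, gene lists, tests and the rule for named genes were chosen with earlier results of these data known. The rule gives full values for the regulators and, per comparison, for up to 4 called genes per branch with the largest changes, and up to 3 called genes per further list, besides Mlxipl and genes not reported here. The deposited log2 values of all 10 libraries were fitted with 1 mean per group in limma 3.58.1 (R 4.3.3, statmod 1.5.0), with treat at 1.5-fold, trend and robust estimation, 2-sided. Log2 fold changes include the prior count, which understates changes of low genes. The fit was tested on simulated reads with few changed genes and the same noise setting for all genes, a simpler case than these data. Alternatives covered pseudocounts, filters, scalings, thresholds, voom on recovered reads, a replicate block and each library left out. Over all genes tested, same-numbered libraries did not deviate together (r from -0.04 to 0.03), so the main fit has no block. Replicate 2 was, however, highest for most fatty acid genes in every group. No pair of replicates matched within sampling noise. Positions are from GENCODE M21. The libraries held 13.1 to 20.5 M reads in listed genes, and genes with few reads are the least precise.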

Additional observations from a re-analysis of the deposited data

Results flagged for a closer look

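Among 39 genes examined for a single NL library far from the other 3 by Dixon's criterion, 4 were found, where chance gives about 1 in 20. Fasn was 107.7 FPKM in NL 3 against 205.8 to 216 FPKM, Srebf1 was 90.2 FPKM in NL 3 against 122.6 to 129 FPKM, and Stard4 was 44.4 FPKM in NL 3 against 53.3 to 55.0 FPKM. Scd1 was 2358 FPKM in NL 2 against 1022 to 1207 FPKM. No cause was tested.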

How the results depend on the processing

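Over 23 alternatives, the 96 log2 fold changes of the members kept their direction and side of the threshold in 2114 instances, lost the call in 42, gained it in 37 and changed sign in 12. With every library set to an equal FPKM total, 13 members were lower and 1 higher in c-MYC versus NL, 1 was higher in c-MYC/FOXO1AAA versus NL, the sterol medians were -0.84 and -2.15 against NL, and the fatty acid medians -3.41 and -3.74. The signs that turned in c-MYC versus NL were those of Acaca (0.40), Acat2 (0.30), Dhcr7 (0.086), Fdft1 (0.31), Mvd (0.18), Scap (0.10), Sqle (0.62) and Srebf1 (0.16), and in c-MYC/FOXO1AAA versus NL that of Srebf2 (1.03). Srebf2 also turned there with quantile normalization (0.15), without NL 1 (0.03) and without c-MYC/FOXO1AAA 3 (0.0558), where leaving out 1 library gave -0.17 to 0.0558. Setting equal totals shifts all genes of a library together by construction.

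With a pseudocount of 1 the fatty acid medians against NL were -3.59 and -4.41, and with quantile normalization that of c-MYC versus NL was -3.84. Without a fold threshold, 1 member was higher in c-MYC versus NL and 23 were lower in c-MYC/FOXO1AAA versus c-MYC, since smaller changes then pass. Leaving out 1 library at a time, the fatty acid median of c-MYC versus NL ran from -4.51 to -3.94, and the sterol median of c-MYC/FOXO1AAA versus c-MYC from -1.80 to -1.24. With voom on the recovered reads, 21, 13 and 31 members were called lower in the 3 comparisons, and 2 higher in c-MYC/FOXO1AAA versus c-MYC. With the replicate number as a block, 21, 14 and 31 were lower. The calls that changed were those of Lss (c-MYC versus NL, -0.96), Elovl6 (-1.16) and Fasn (c-MYC/FOXO1AAA versus c-MYC, -1.31). Only NL has a replicate 4, so the block takes up NL 4. The branch medians against NL were therefore those found without NL 4 (-1.70 and -4.36 in c-MYC versus NL). The labels do not say whether the numbers pair the samples. Over all genes tested, same-numbered libraries did not deviate together, but replicate 2 was highest for most fatty acid genes in every group. The cause of the shifts between settings was not tested. Low reads limit Fdps (7 to 85), Me1 in c-MYC (20 to 45) and Acacb in c-MYC/FOXO1AAA (50 to 105).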
